A study of Mus musculus with 75 samples.

Results

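The transcripts of 36 genes of the unfolded protein response and the integrated stress response were followed in mouse blood stem and progenitor cells, 36 of 41388 mouse genes counted. The genes were chosen by name, and each matched 1 row in both count tables. They fall into 18 amino acid response members and 18 members of the endoplasmic reticulum (ER) folding machinery. RNA-seq had been done on 75 libraries from 8 week old mice. In the first experiment, haematopoietic stem cells (HSC), haematopoietic progenitor cells (HPC), pre-granulocyte-monocyte progenitors (pGM) and granulocyte-monocyte progenitors (GMP) were taken from untreated mice that were wild type (wt), Kmt2c f/+; Vav-Cre (het) or Kmt2c f/f; Vav-Cre (ko), with 4 libraries in each of the 12 groups. In the second, HSC and HPC were from mice of the wt and ko genotypes, treated for 3 days with IL-1 (0.5 ug per mouse) or with PBS, with 3 or 4 libraries in each of 8 groups. Kmt2c encodes a histone H3 lysine 4 methyltransferase. Vav-Cre deletes floxed alleles in blood-forming cells from before birth, so the deletion was not confined to the sorted populations, and no Vav-Cre is given in the labels of wt libraries. The labels do not say that replicates are separate animals, so p-values measure the spread between these libraries. In the second experiment the HSC libraries are entered under HPCs in 1 label field and as HSC in the rest, and were taken as HSC.

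The unfolded protein response senses misfolded protein in the ER through the sensors IRE1, PERK and ATF6 and raises transcription of chaperones, disulfide isomerases and degradation factors. PERK shares its substrate, the translation factor eIF2alpha, with kinases that sense amino acid shortage, haem shortage and double-stranded RNA. Phosphorylated eIF2alpha lowers general translation and favours translation of Atf4, whose protein switches on amino acid synthesis and transport genes through the CARE, a composite C/EBP-ATF element. ER chaperone genes are known for a different promoter element, the ER stress response element (ERSE), bound by ATF6 with NF-Y.

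The promoter windows of the members carry these elements unevenly between the ER and amino acid response members. In RefSeq windows on GRCm38.p6, from 250 bases before to 50 bases after the start site and searched on both strands, 33 of the 36 members had an entry, and Slc7a5, Hyou1 and Manf had none. ERSE, spelled CCAAT, 9 bases of any kind and CCACG, was found in 7 of 16 ER members (43.8%), in 0 of 17 amino acid response members, and in 37 of 27025 genes (0.137%). The 8 sites are shown because they are the ERSE matches of the ER members, 7 genes whose levels are described below. Each is read so that the element runs forward, 5 lower-case bases flank it, and capitals mark the match.
Calr, chr8:84847070-84847098, plus strand: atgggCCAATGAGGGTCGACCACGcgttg
Canx, chr11:50325795-50325823, minus strand: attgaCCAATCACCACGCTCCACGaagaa
Creld2, chr15:88819515-88819543, minus strand: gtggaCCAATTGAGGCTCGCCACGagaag
Dnajc3, chr14:118937822-118937850, plus strand: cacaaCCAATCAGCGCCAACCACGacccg
Hsp90b1, chr10:86705633-86705661, minus strand: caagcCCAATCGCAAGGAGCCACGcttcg
Hsp90b1, chr10:86705528-86705556, plus strand: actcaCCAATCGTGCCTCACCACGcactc
Hspa5, chr2:34772020-34772048, plus strand: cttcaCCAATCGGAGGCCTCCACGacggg
Pdia6, chr12:17266486-17266514, plus strand: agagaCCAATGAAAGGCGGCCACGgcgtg
The related element ERSE-II, spelled ATTGG, any 1 base and CCACG, was found in Dnajb11 and Herpud1, 2 of 16 ER members (12.5%), against 0.0444% of all genes.
Dnajb11, chr16:22857847-22857867, plus strand: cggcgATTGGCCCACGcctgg
Herpud1, chr8:94386372-94386392, plus strand: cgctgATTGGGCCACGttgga
The letters TGACGTGG, the core of the XBP1-bound element, were found in 0 members with a window and in 0.714% of all genes.

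CARE, spelled TGATGNAA, was found in 7 of 17 amino acid response members (41.2%), in Herpud1 alone among the 16 ER members, and in 4.51% of all genes. Herpud1 carries both CARE and ERSE-II, at separate places in its window, and no other member carries CARE with another of these motifs. The sites of the amino acid response members are shown because they include Asns, the member that differed between genotypes. The capitals mark the match.
Asns, chr6:7693220-7693237, minus strand: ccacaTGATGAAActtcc
Chac1, chr2:119351044-119351061, minus strand: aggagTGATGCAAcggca
Nupr1, chr7:126625568-126625585, plus strand: ctgtcTGATGCAAtctgg
Pycr1, chr11:120643839-120643856, minus strand: gtgtaTGATGCAAtgcac
Slc7a11, chr3:50443667-50443684, minus strand: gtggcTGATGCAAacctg
Slc7a11, chr3:50443648-50443665, plus strand: catgaTGATGCAAattct
Trib3, chr2:152344034-152344051, plus strand: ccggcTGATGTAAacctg
Vldlr, chr19:27216815-27216832, minus strand: agcgcTGATGCAActatt
Slc7a11 holds a pair of sites on opposite strands. A match is a run of letters in this window and no measure of binding.

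Longer upstream stretches are given for 4 members described below, ending at the base before the start site, with capitals on ERSE or CARE matches. Asns carries its match close to the start site and Nupr1 further upstream, while Hsp90b1 holds ERSE in both orientations.
Asns, chr6:7693210-7693359, minus strand: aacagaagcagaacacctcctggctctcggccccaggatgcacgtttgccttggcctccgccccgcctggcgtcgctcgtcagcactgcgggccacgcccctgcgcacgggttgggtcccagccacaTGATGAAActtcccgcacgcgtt
Nupr1, chr7:126625471-126625620, minus strand: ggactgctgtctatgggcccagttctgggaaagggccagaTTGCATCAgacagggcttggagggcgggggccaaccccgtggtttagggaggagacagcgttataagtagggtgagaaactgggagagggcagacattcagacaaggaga
Calr, chr8:84846932-84847131, minus strand: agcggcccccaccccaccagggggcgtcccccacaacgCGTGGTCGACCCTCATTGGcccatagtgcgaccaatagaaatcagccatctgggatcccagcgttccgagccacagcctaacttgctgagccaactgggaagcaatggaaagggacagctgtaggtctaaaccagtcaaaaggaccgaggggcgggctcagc
Hsp90b1, chr10:86705445-86705694, minus strand: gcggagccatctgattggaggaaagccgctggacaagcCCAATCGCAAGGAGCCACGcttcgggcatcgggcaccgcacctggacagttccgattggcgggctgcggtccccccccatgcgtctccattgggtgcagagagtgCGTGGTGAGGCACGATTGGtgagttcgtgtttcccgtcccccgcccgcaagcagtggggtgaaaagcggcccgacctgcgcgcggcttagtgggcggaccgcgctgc

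Library totals were 13273928 to 20814531 counts in the first experiment and 18649343 to 42826325 in the second. Kmt2c, counted per gene, separated ko from wt in every untreated population, at 13.1 to 17.9 CPM (counts scaled by library size) against 41.4 to 58.0 in HSC, 10.9 to 14.2 against 28.5 to 53.8 in HPC, 6.24 to 14.2 against 32.9 to 39.7 in pGM, and 3.02 to 10.2 against 14.5 to 25.7 in GMP. In the second experiment it was at 12.7 to 25.6 CPM in ko libraries and 30 to 72.9 in wt libraries, apart from 1 library that went against its label. The library labelled HSC wt IL-1 1 had Kmt2c at 14 CPM, where the other 2 of its group had 41.6 and 42.6 and the HSC ko IL-1 libraries had 12.7 to 16.8. Results that use this library include it. The medians of both kinds of member against PBS in wt HSC, Hspa5 there and Asns between genotypes are also given without it. The HSC and granulocyte-monocyte markers fitted the labelled populations. The summed HSC markers (Slamf1, Mecom, Hlf, Procr, Fgd5) were at 934 to 1100 CPM in wt HSC and 15.7 to 20.7 in wt GMP. The summed granulocyte-monocyte markers (Mpo, Elane, Ctsg, Prtn3, Fcgr3, Ms4a3) were at 957 to 2280 CPM in wt HSC and 140000 to 172000 in wt GMP. Markers of mature cells varied widely between libraries of some untreated groups. Summed neutrophil markers were at 17.2 to 2570 CPM in wt HSC and 12.1 to 2680 in ko HPC, and erythroid markers at 6.62 to 429 in wt HSC. Levels are CPM after trimmed mean (TMM) scaling, and tests are edgeR's quasi-likelihood test with Benjamini-Hochberg adjustment over all genes tested; a gene is called at an adjusted p under 0.05. In bulk RNA a change in the share of cells that express a gene and a change per cell cannot be told apart.

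ER chaperone transcripts rose along the wt path from HPC to GMP, and the amino acid response members did not move together. Per kilobase of exon, Calr had the highest level of the 36 in each wt population, with means of 181 CPM per kb in HSC, 227 in HPC, 461 in pGM and 1300 in GMP, followed in GMP by Pdia6 at 713 and Hspa5 at 564. From HSC to HPC, 1 ER member was called higher and 2 lower, where 22.8% of 15110 genes were called in either direction (12.5% higher, 10.2% lower). From HPC to pGM, 10 of 18 ER members were called higher and 0 lower, where 5.59% of genes were called higher, 6.36% lower and 12% in either direction. From pGM to GMP, 15 of 18 were called higher and 0 lower, against 11% of genes called higher and 29% in either direction. The median log2 change of the ER members over these steps was 0.06, 0.67 and 1.09, beside -0.02, -0.00 and -0.11 for all genes. For the amino acid response members it was -0.00, 0.30 and 0.33. Of these 18 members, 6 were called higher and 3 lower from HSC to HPC, and 3 higher and 3 lower at each later step. From pGM to GMP 18% of all genes were called lower.

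Calr, a lectin chaperone that binds calcium in the ER lumen, shows the pattern most plainly. Its levels were 493, 525, 522 and 549 CPM in wt HSC, 660, 740, 644 and 571 in HPC, 1320, 1190, 1400 and 1410 in pGM, and 3340, 4060, 3790 and 3750 in GMP. No wt library of a later population overlapped one of an earlier population. Its log2 change was 0.32 ± 0.14 (SE) from HSC to HPC (edgeR adjusted p = 0.0805), 1.02 ± 0.14 from HPC to pGM (adjusted p = 7.32e-07) and 1.49 ± 0.14 from pGM to GMP (adjusted p = 7.42e-12). Its membrane-bound relative Canx rose by 0.66 ± 0.16 and 0.51 ± 0.16 over the last 2 steps (edgeR adjusted p = 0.00327 and 0.0111).

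**Figure D1:**
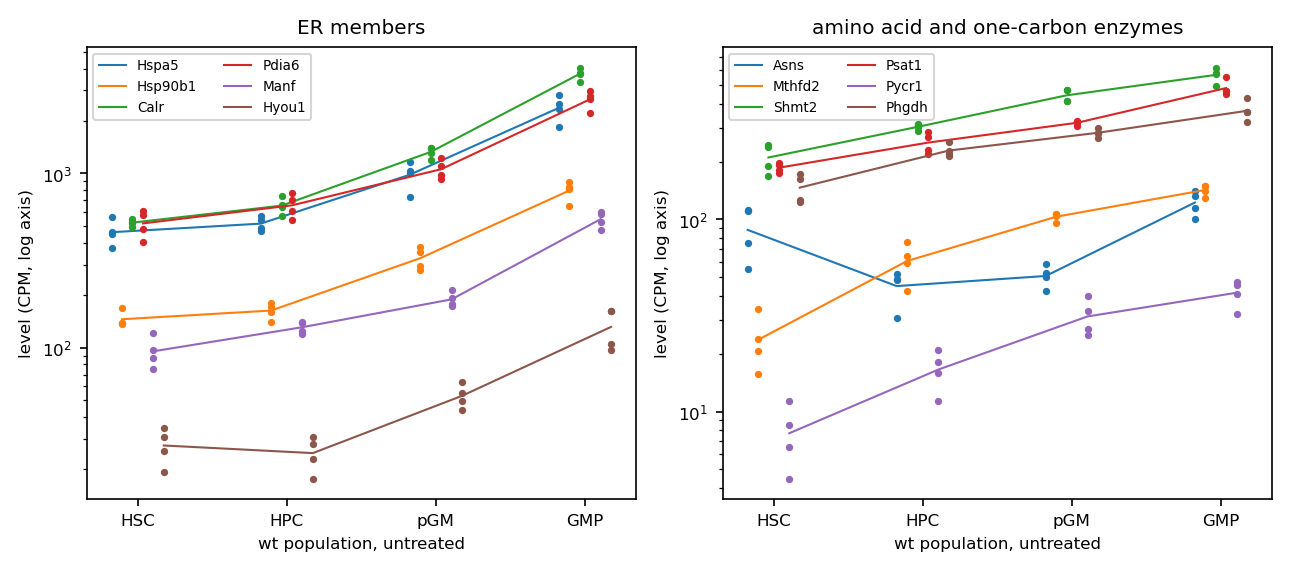
Levels in CPM (log axis) of 6 ER members (left) and 6 amino acid and one-carbon enzymes (right) in the 4 untreated wt populations; points are single libraries (n = 4 per population), lines join the means. Calr reached 3340 to 4060 CPM in GMP from 493 to 549 in HSC, while Asns was lower in HPC and pGM than in GMP.

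Among the 8 chaperones and cofactors of the HSP70 and HSP90 families, 5 were called higher from HPC to pGM and 7 from pGM to GMP. At these steps 5.59% and 11% of all genes were called higher. Hsp90b1, the ER form of HSP90, was at 136, 169, 139 and 138 CPM in wt HSC, 171, 161, 181 and 140 in HPC, 280, 294, 355 and 376 in pGM, and 653, 835, 812 and 892 in GMP. The HSC and HPC libraries overlapped and the later populations lay apart, with log2 changes of 1.00 ± 0.16 to pGM (edgeR adjusted p = 1.29e-05) and 1.29 ± 0.16 to GMP (adjusted p = 9.01e-09). Hspa5, known as BiP and the main ER HSP70, rose by 0.93 ± 0.18 and 1.28 ± 0.18 over the same steps (edgeR adjusted p = 0.000216 and 1.68e-07), from 465 to 570 CPM in HPC to 1850 to 2820 in GMP. Hyou1, a nucleotide exchange factor for Hspa5, was at 17.7, 30.7, 22.9 and 27.8 CPM in HPC, 43.6, 49.4, 54.5 and 63.8 in pGM, and 97.0, 162, 105 and 162 in GMP. Its 3 populations did not overlap, and it rose by 1.09 ± 0.24 and 1.32 ± 0.24 (edgeR adjusted p = 0.00159 and 3.26e-05).

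Manf, a secreted and ER-resident stress-induced protein, was at 122, 86.6, 97.3 and 75.1 CPM in wt HSC, 141, 125, 119 and 139 in HPC, 192, 174, 213 and 178 in pGM and 585, 473, 599 and 529 in GMP. The GMP libraries stood far above the rest, a log2 rise of 1.53 ± 0.17 from pGM (edgeR adjusted p = 1.12e-09). The earlier steps of Manf were small, 0.46 ± 0.17 and 0.53 ± 0.17 (edgeR adjusted p = 0.0437 and 0.0299), and lost their call in 9 and 7 of 15 alternatives, among them the fits without HPC wt 1, 2 or 4 or HSC wt 2, 3 or 4 for the first and without HPC wt 2 or 3 or pGM wt 1 or 3 for the second (adjusted p up to 0.175 and 0.105). Dnajb9, an HSP70 cofactor also known as ERdj4, went the other way at the first step. It was at 47.1, 33.2, 28.5 and 27.7 CPM in wt HSC and 24.4, 12.5, 14.9 and 23.3 in HPC, without overlap, a log2 change of -0.86 ± 0.22 (edgeR adjusted p = 0.00255). It was the chaperone of this group that was not called from pGM to GMP, at 0.40 ± 0.22. Its fellow HSP70 cofactors Dnajb11 and Dnajc3 rose at that step by 1.01 ± 0.16 and 0.85 ± 0.21 (edgeR adjusted p = 3.22e-06 and 0.00198) and were called at no earlier one.

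Of the disulfide isomerases and their relatives, Pdia4 and Pdia6 rose at both later steps and Creld2 rose from pGM to GMP. Pdia4 rose by 0.77 ± 0.16 and 1.08 ± 0.16 (edgeR adjusted p = 0.000855 and 1.05e-06). Pdia6 rose by 0.69 ± 0.15 and 1.34 ± 0.15 (edgeR adjusted p = 0.00134 and 1.92e-09). Creld2, a secreted ER stress protein, was at 36.5, 28.4, 29.8 and 26.7 CPM in wt pGM and 78.3, 90.5, 68.2 and 94.9 in GMP, a log2 rise of 1.45 ± 0.32 (edgeR adjusted p = 0.000494). Pdia3 was not called at any step and its libraries differed widely within each group. Its wt levels were 521, 525, 448 and 141 CPM in HSC, 128, 107, 335 and 461 in HPC, 831, 517, 792 and 291 in pGM, and 1290, 1540, 429 and 1940 in GMP. Its log2 change from pGM to GMP was 1.1 ± 0.68 (edgeR adjusted p = 0.24).

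Sdf2l1, an ER protein that works with HSP40 cofactors, had the largest called changes of the ER members and a spread like that of Pdia3. It was at 15.5, 11.1, 25.5 and 45.9 CPM in wt HPC, 115, 61.5, 109 and 46.7 in pGM and 368, 351, 174 and 413 in GMP. The populations did not overlap, and the log2 changes were 1.76 ± 0.59 to pGM (edgeR adjusted p = 0.046) and 1.97 ± 0.59 to GMP (adjusted p = 0.00975). The first of these calls was lost in 8 of 15 alternatives, among them the fits without HPC wt 1, 2 or 3 or pGM wt 1 or 3, with adjusted p up to 0.142. Leaving out Pdia3, Sdf2l1 and Creld2, 9 of the other 15 ER members were called higher from HPC to pGM and 13 of 15 from pGM to GMP. The shares of all genes called higher were 5.59% and 11%.

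Of the 4 regulators and degradation factors among the ER members, 1 fell from HSC to HPC, 1 rose from HPC to pGM and 3 rose from pGM to GMP. The shares of all genes called in these directions were 10.2%, 5.59% and 11%. Xbp1, the transcription factor spliced by IRE1, was at 107, 91.5, 83.3 and 90.0 CPM in wt HSC and 64.8, 62.3, 46.8 and 67.7 in HPC. It fell between them by 0.62 ± 0.20 without overlap (edgeR adjusted p = 0.0187) and rose from pGM to GMP by 0.78 ± 0.20 (adjusted p = 0.00236). The call of its fall was lost without HPC wt 3 or HSC wt 1 (edgeR adjusted p = 0.0797 and 0.0676). Herpud1 and Edem1, which act in ER-associated degradation, rose from pGM to GMP by 0.72 ± 0.17 and 1.01 ± 0.25 (edgeR adjusted p = 0.000856 and 0.00148), and Edem1 had already risen from HPC to pGM by 0.86 ± 0.25 (adjusted p = 0.0175). Edem1 lost this earlier call without HPC wt 2, pGM wt 3 or pGM wt 4 (edgeR adjusted p up to 0.0773). Sel1l, the scaffold of the HRD1 ubiquitin ligase, was called at no step.

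All 7 ER members with ERSE in their window were called higher from pGM to GMP, and 6 of the 9 with a window and no ERSE, where 11% of all genes were. Their median log2 changes were 1.29 and 1.01. The group without ERSE includes Dnajb11 and Herpud1, which carry ERSE-II, and Pdia3, whose libraries differed widely. From HPC to pGM the counts were 5 of 7 and 3 of 9, where 5.59% of all genes were called higher, with medians of 0.69 and 0.37. From HSC to HPC 0 of 7 and 0 of 9 were called higher, where 12.5% of all genes were, with medians of 0.16 and -0.21. A part of ERSE in these changes was not tested.

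**Figure D2:**
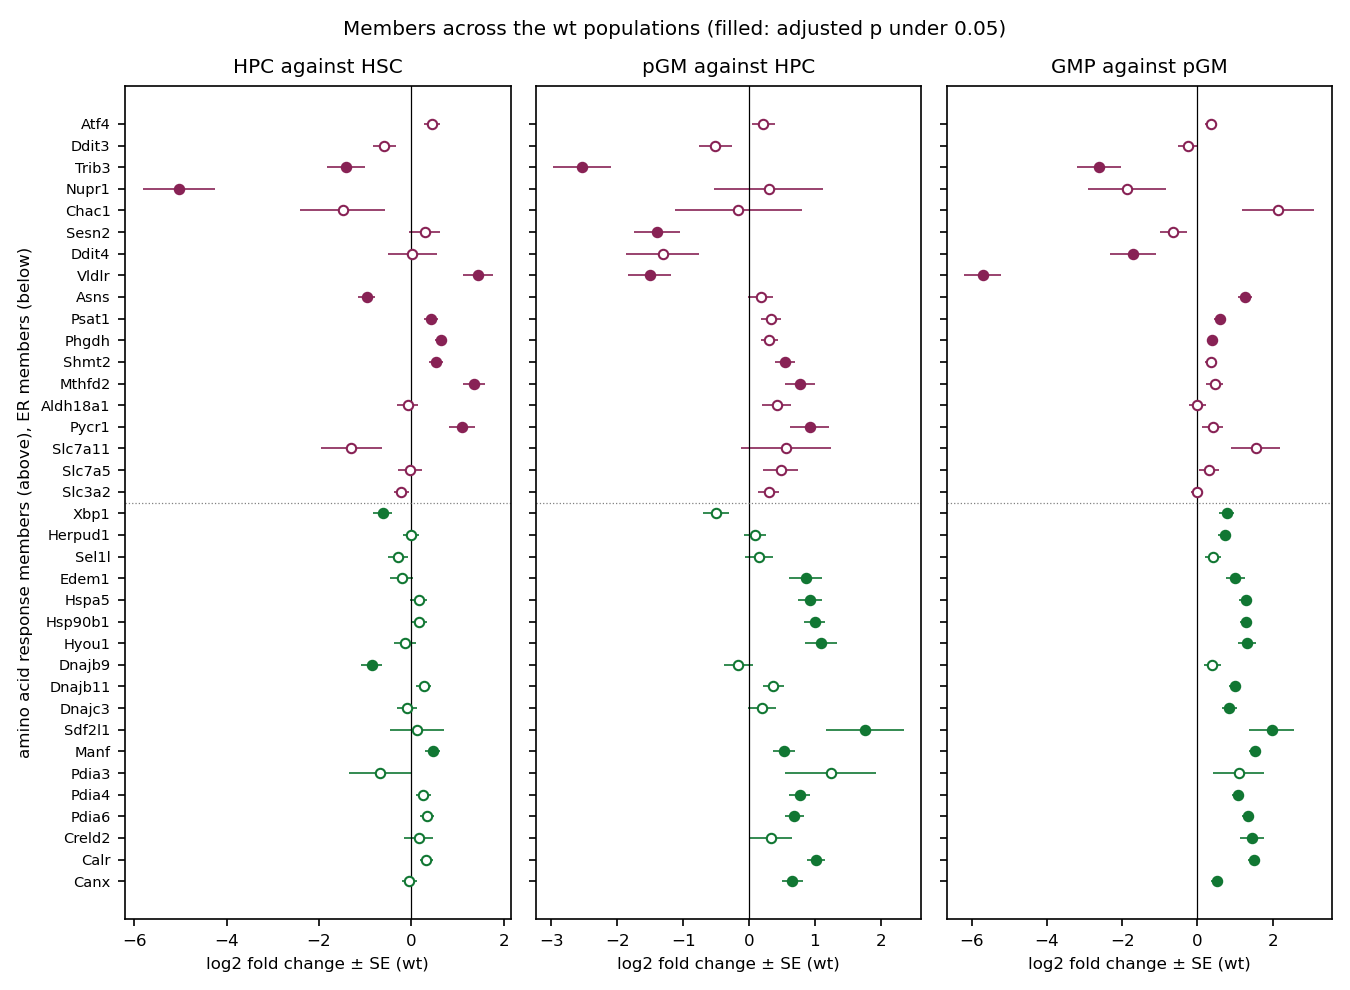
Log2 fold change ± SE of each member between successive untreated wt populations (4 libraries each), amino acid response members above and ER members below the dotted line; filled points have an edgeR adjusted p under 0.05. ER members lie to the right of zero from pGM to GMP, all 18 of them, while Trib3, Ddit4 and Vldlr lie far to the left.

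Other genes of the same pathway, from lists chosen by function, moved as follows. Of 40 other genes of ER folding, translocation and degradation that were tested, 6, 9 and 25 were called higher over the 3 steps and 0 lower. Of all genes, 12.5%, 5.59% and 11% were called higher at these steps, so the count from HSC to HPC was near the share of all genes. Rpn1, a subunit of the oligosaccharyltransferase, rose by 1.01 ± 0.13 and 1.23 ± 0.13 over the last 2 (edgeR adjusted p = 3.02e-07 and 2.64e-10). Ssr2, part of the translocon-associated complex, rose by 1.07 ± 0.12 from pGM to GMP (edgeR adjusted p = 8.85e-10). Among 12 stress sensors and eIF2alpha phosphatases, Ppp1r15a, the stress-induced phosphatase subunit also called GADD34, fell by 1.23 ± 0.24 from HSC to HPC (edgeR adjusted p = 0.000161) and by 0.85 ± 0.25 from pGM to GMP (adjusted p = 0.00739). Eif2ak3, which encodes PERK, fell by 0.96 ± 0.33 from HSC to HPC (edgeR adjusted p = 0.0284). Of 20 cytosolic aminoacyl-tRNA synthetases, 1, 11 and 4 were called higher over the 3 steps and 0 lower, beside the same 12.5%, 5.59% and 11% of all genes called higher.

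Markers of the populations themselves moved at the same steps. Of all genes, 12.5%, 5.59% and 11% were called higher over the 3 steps, and 18% lower from pGM to GMP. All 12 mitosis genes were called higher from HSC to HPC (median log2 change 1.54), 0 from HPC to pGM and 3 from pGM to GMP. All 6 granulocyte-monocyte markers, which include secretory granule proteases, were called higher at both later steps (medians 2.64 and 3.31). Of the 6 plasma cell markers, whose cells are rich in ER, 4 were called lower from pGM to GMP, with a summed level of 0.959 to 12.8 CPM in wt GMP and Irf4 at 0. Their part in the ER members' rise was not tested.

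The amino acid response members split by role across the wt populations. Among its 4 regulators none was called higher at any step, though Atf4 was in some alternatives given below. Trib3, a pseudokinase that ATF4 and CHOP induce and that restrains them, fell at each step. It was at 35.5, 62.0, 33.8 and 41.4 CPM in wt HSC, 12.5, 18.9, 14.9 and 18.9 in HPC, 3.07, 5.87, 0.744 and 1.51 in pGM, and 0.0824, 0, 0.944 and 0.783 in GMP. HSC, HPC and pGM did not overlap, and pGM and GMP did. The log2 changes were -1.41 ± 0.41, -2.53 ± 0.44 and -2.62 ± 0.58 (edgeR adjusted p = 0.00926, 7.26e-05 and 0.000476). Without pGM wt 2 the last 2 were -3.21 and -1.94, and without GMP wt 3 the last was -3.24.

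Nupr1, a small stress-induced chromatin protein, was at 19.2, 20.1, 17.2 and 17.6 CPM in wt HSC and at 0, 0.118, 0.169 and 1.90 in HPC. All HSC libraries lay far above the HPC libraries, a fitted log2 change of -5.04 ± 0.78 (edgeR adjusted p = 3.39e-06; -7.43 without HPC wt 4), and it stayed at 2.53 or below in wt pGM and GMP. Atf4 mRNA itself was at 25.5 to 33.3 CPM in wt HSC, 36.5 to 48 in HPC, 40.9 to 54.6 in pGM and 61.9 to 64.8 in GMP; no single step was called (edgeR adjusted p = 0.0558, 0.458 and 0.119). Some alternatives did call Atf4 higher: from HSC to HPC the replicate block (0.0435), the block by genotype and number (0.015), the library index covariate (0.0219) and the fit without HPC wt 3 (0.0442), and from pGM to GMP the block by genotype and number (0.0428) and the fit of only the groups compared (0.0252), all edgeR adjusted p. Ddit3, which encodes CHOP, was at 14.5 to 25.3 CPM in HSC and 5.83 to 10.1 in GMP, and no step was called; from HSC to HPC DESeq2 (adjusted p = 0.0446), the fit of only the groups compared (edgeR 0.0329) and the fit without HSC wt 4 (edgeR 0.0413) called it lower.

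Among the 4 stress effectors, Vldlr, a lipoprotein receptor, rose and then fell. It was at 18.4, 9.93, 14.5 and 21.5 CPM in wt HSC, 37.1, 41.3, 43.7 and 52.2 in HPC, 13.7, 18, 13.3 and 16.0 in pGM, and 0.33, 0.16, 0.0858 and 0.548 in GMP. HPC stood above and GMP below all other libraries. The log2 changes were 1.44 ± 0.33, -1.51 ± 0.33 and -5.71 ± 0.49 (edgeR adjusted p = 0.000969, 0.00125 and 5.47e-13).

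Sesn2, a leucine sensor that restrains mTORC1, was at 13.3, 18.3, 16.2 and 17.0 CPM in wt HPC and 7.32, 5.99, 6.98 and 4.27 in pGM, without overlap (log2 change -1.40 ± 0.35, edgeR adjusted p = 0.00493). Ddit4, another mTORC1 inhibitor also called REDD1, was at 3.56, 2.82, 1.43 and 2.30 CPM in pGM and 0.906, 0.40, 1.37 and 0.391 in GMP (log2 change -1.72 ± 0.61, edgeR adjusted p = 0.0303); the call of Ddit4 was lost without GMP wt 2, GMP wt 4, pGM wt 1 or pGM wt 2, with adjusted p up to 0.0968. Chac1, which degrades glutathione, was at 2.88 CPM or below in every wt library and was not called.

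The enzymes of amino acid and one-carbon synthesis rose, apart from Asns and Aldh18a1. Mthfd2, the mitochondrial folate enzyme, was at 15.7, 34.3, 23.8 and 20.7 CPM in wt HSC and 76.6, 59.5, 64.6 and 42.5 in HPC. The groups did not overlap, a log2 change of 1.36 ± 0.24 (edgeR adjusted p = 2.23e-05), with a further 0.77 ± 0.23 to pGM (adjusted p = 0.0233). Pycr1, the last enzyme of proline synthesis, was at 21.0, 15.8, 18.1 and 11.3 CPM in HPC and 40.0, 33.4, 26.8 and 24.9 in pGM, a log2 change of 0.92 ± 0.29 (edgeR adjusted p = 0.0269) after 1.1 ± 0.29 from HSC to HPC (adjusted p = 0.00419). Shmt2, the mitochondrial serine hydroxymethyltransferase, rose by 0.53 ± 0.15 and 0.55 ± 0.15 over the first 2 steps (edgeR adjusted p = 0.00818 and 0.0117). Its call from HSC to HPC was lost without HSC wt 1 (edgeR adjusted p = 0.053). The call of Mthfd2 from HPC to pGM was lost without HPC wt 2, HPC wt 4, pGM wt 3 or pGM wt 4 (edgeR adjusted p up to 0.108), and that of Pycr1 without HPC wt 2, HPC wt 4, pGM wt 1 or pGM wt 2 (up to 0.11).

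Phgdh and Psat1, which take the early steps of serine synthesis, rose from HSC to HPC by 0.64 ± 0.13 and 0.43 ± 0.15 (edgeR adjusted p = 0.000151 and 0.0359) and from pGM to GMP by 0.38 ± 0.13 and 0.60 ± 0.15 (adjusted p = 0.0187 and 0.00234). Psat1 lost its call from HSC to HPC in 8 of 15 alternatives, among them DESeq2 (adjusted p = 0.0826) and the fit without HPC wt 2 (edgeR adjusted p = 0.13). Aldh18a1, the first enzyme of proline synthesis, was at 84.5 to 197 CPM over all wt libraries and was called at no step. The transporters Slc7a5 and Slc3a2, which pair to import large neutral amino acids, and Slc7a11, the cystine transporter, were called at no step, and Slc7a11 stayed at 1.92 CPM or below in wt libraries.

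Asns, which makes asparagine from aspartate and glutamine, fell from HSC to HPC and rose from pGM to GMP. It was at 55.2, 111, 112 and 75.0 CPM in wt HSC, 48.6, 51.8, 48.9 and 30.7 in HPC, 49.9, 58.4, 52.6 and 42.3 in pGM, and 115, 133, 141 and 101 in GMP. HSC lay above HPC without overlap (log2 change -0.97 ± 0.19, edgeR adjusted p = 0.000123), HPC and pGM overlapped (0.18 ± 0.19, adjusted p = 0.605), and GMP lay above pGM without overlap (1.27 ± 0.19, adjusted p = 8.38e-07).

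The wt step from HSC to HPC could be read again in the PBS groups of the second experiment, where 13.8% of 17511 genes were called. There Ddit3 and Nupr1 were called lower and Mthfd2 higher, and 0 of 18 ER members were called. Nupr1 was at 17.0, 20.2, 34.1 and 30.1 CPM in HSC and 1.86, 0.459 and 1.35 in HPC (log2 change -4.35 ± 0.56, edgeR adjusted p = 2.65e-06). Ddit3 was at 17.6, 15.5, 19.5 and 18.1 CPM in HSC and 7.94, 6.46 and 9.87 in HPC (log2 change -1.13 ± 0.24, edgeR adjusted p = 0.00162). Mthfd2 was at 19.0, 13.2, 22.1 and 16.8 CPM in HSC and 54.4, 39.7 and 37.9 in HPC (log2 change 1.31 ± 0.34, edgeR adjusted p = 0.00967; 0.0647 without HPC wt PBS 1). All 3 kept the groups apart. In all, 6 amino acid response members lay lower in every HPC library (Ddit3, Trib3, Nupr1, Asns, Slc7a11, Slc3a2), where 12.7% of all genes tested did, and 2 amino acid response members (Vldlr, Mthfd2) and 2 ER members (Hsp90b1, Calr) lay higher, where 11.3% did. Trib3 and Asns did not pass the test (edgeR adjusted p = 0.0646 and 0.22); Trib3 did with DESeq2 (0.0301), and both did in the fit of only the groups compared (edgeR 0.00134 and 0.00976).

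Asns was higher in ko than in wt in untreated HSC, HPC and pGM, and was the 1 member of 36 called between them in each. The ko mice carry Vav-Cre and the wt labels give none, so Kmt2c loss and Cre cannot be told apart here. In HSC 1.78% of 13806 genes were called in either direction and 0.572% higher; in HPC 1.1% of 13276 and 0.249%; in pGM 1.94% of 12939 and 0.41%. In GMP 0 members were called, where 0.555% of 12082 genes were (0.199% higher), and 3 of 33 members tested had an unadjusted p under 0.05 (9.32% of all genes); DESeq2 also called 0.

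In HSC, Asns was at 201, 165, 153 and 194 CPM in ko, 134, 123, 136 and 115 in het, and 55.2, 111, 112 and 75.0 in wt. The 3 genotypes did not overlap, in the order wt, het, ko. The ko against wt log2 change was 1.01 ± 0.18 (edgeR adjusted p = 0.00614), the het against wt change 0.51 ± 0.18 (adjusted p = 0.807) and the ko against het change 0.49 ± 0.18 (adjusted p = 0.485).

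In HPC, Asns was at 117, 91.6, 82.3 and 104 CPM in ko, 65.5, 49.4, 70.3 and 74.9 in het, and 48.6, 51.8, 48.9 and 30.7 in wt. Every ko library lay above every het and wt library, and 1 het library fell within the wt range. The log2 change was 1.13 ± 0.19 for ko against wt (edgeR adjusted p = 0.00486), 0.59 ± 0.19 for ko against het (adjusted p = 0.404) and 0.54 ± 0.19 for het against wt (adjusted p = 0.963). With Y-linked expression as a covariate the ko against wt call was lost (adjusted p = 0.0783).

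In pGM, Asns was at 83.1, 106, 109 and 112 CPM in ko, 65.7, 47.1, 69.3 and 78.3 in het, and 49.9, 58.4, 52.6 and 42.3 in wt. Every ko library again lay above every het and wt library. The log2 change was 1.02 ± 0.15 for ko against wt (edgeR adjusted p = 0.000865), 0.66 ± 0.15 for ko against het (adjusted p = 0.0571) and 0.36 ± 0.15 for het against wt (adjusted p = 0.614). The ko against het difference passed the test with DESeq2 (adjusted p = 0.00408), with no filter on low counts (edgeR adjusted p = 0.0315) and without pGM het 4 (adjusted p = 0.0436). Between het and wt 0 members were called in any population, where at most 0.0155% of genes were (0.00724% in HSC, 0.00753% in HPC, 0.0155% in pGM and 0.00828% in GMP), and 3, 3, 8 and 0 members had an unadjusted p under 0.05 (5.49%, 4.22%, 7.35% and 2.78% of all genes). Between ko and het 0 members were called, where 0.326%, 0.196%, 0.564% and 0.0166% of genes were in the same order, and 4, 2, 5 and 0 members had an unadjusted p under 0.05 (7.19%, 6.21%, 8.59% and 4.45% of all genes); DESeq2 called Asns in pGM and no other member. These comparisons share libraries with those of ko against wt.

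In GMP, Asns was at 163, 105, 160 and 152 CPM in ko, 95.1, 139, 153 and 138 in het, and 115, 133, 141 and 101 in wt. The genotypes overlapped, and the ko against wt log2 change was 0.25 ± 0.18 (edgeR adjusted p = 0.726). The ko effect in GMP minus that in HSC was -0.77 ± 0.26 (edgeR adjusted p = 0.254), so the difference between populations did not pass the test. For HPC minus HSC it was 0.12 ± 0.26 (adjusted p = 0.971) and for pGM minus HSC 0.00 ± 0.28 (adjusted p = 1.0). In these 3 comparisons of ko effects 0 members were called, where 0.39% (GMP), 0.232% (HPC) and 0.218% (pGM) of genes were, and 10, 2 and 1 members had an unadjusted p under 0.05 (9.65%, 6.86% and 5.02% of all genes); DESeq2 called 0 in each.

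**Figure D3:**
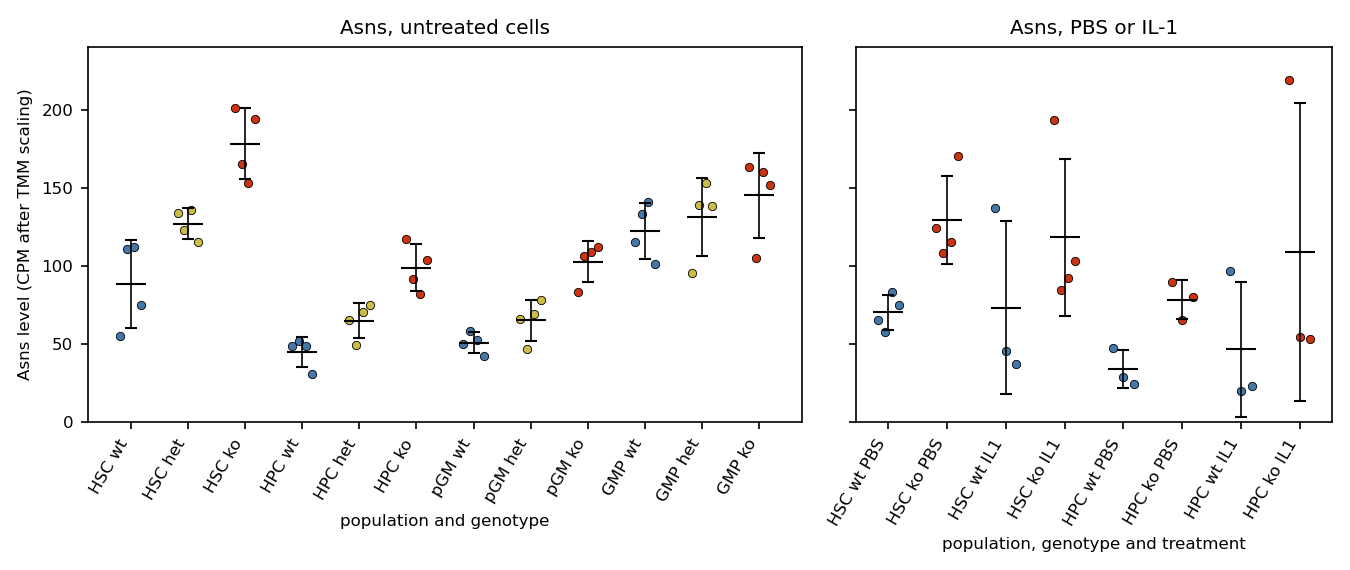
Asns level in CPM by library (points), with group mean and SD (bars), in untreated cells (left) and after PBS or IL-1 (right); blue is wt, yellow het and red ko. All ko libraries lie above all wt libraries in untreated HSC, HPC and pGM and in both PBS groups. The genotypes overlap in GMP and in both IL-1 groups. In HSC after IL-1 the overlap comes only from a library labelled wt whose Kmt2c level was that of ko libraries. The other wt libraries of that group lie below all ko libraries.

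The other amino acid response members were not called between ko and wt. In HSC their log2 changes ran from -0.98 to 0.96. Nupr1 was at 23.6, 47.2, 24.0 and 41.1 CPM in HSC ko and 17.2 to 20.1 in wt, without overlap (log2 change 0.86 ± 0.24, edgeR adjusted p = 0.103; DESeq2 0.0278). Pycr1 had log2 changes of 0.96 ± 0.30 in HSC, 0.58 ± 0.31 in HPC, 0.56 ± 0.16 in pGM and -0.05 ± 0.23 in GMP (edgeR adjusted p = 0.164, 0.704, 0.0941 and 0.963). Atf4 had log2 changes of 0.06, 0.19, 0.08 and 0.11 in the same order, with adjusted p of 0.892 or more in each. Among amino acid response members with CARE in their window, the median ko against wt log2 change was 0.77 in HSC, 0.58 in HPC and 0.24 in pGM. Among those with a window and no CARE it was 0.05, -0.02 and -0.00. The CARE medians include Asns, Nupr1 (tested in HSC alone) and Pycr1, and all cover the members tested. For ER members with ERSE the medians were 0.29, 0.18 and 0.06, and without it 0.11, 0.18 and 0.06. Over the 3 wt steps the medians were -1.3, 0.18 and 0.41 with CARE, and 0.36, 0.3 and 0.18 without it. A part of CARE in the ko difference was not tested. Nupr1 passed the filter on low counts in HSC alone among the untreated populations.

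Among the ER members 0 of 18 were called between ko and wt in any untreated population. Of the ER and amino acid response members together, Asns included, 9 of 36, 6 of 34, 5 of 34 and 3 of 33 tested had an unadjusted edgeR p under 0.05. These are for HSC, HPC, pGM and GMP, where 10.7%, 8.26%, 9.2% and 9.32% of all genes did. The median log2 change of the ER members was 0.21 in HSC, 0.18 in HPC, 0.06 in pGM and -0.07 in GMP. Without Pdia3, Sdf2l1 and Creld2, which followed the library index described below, it was 0.11, 0.16, 0.06 and -0.13. For the amino acid response members it was 0.08, 0.20, 0.03 and -0.20, and for all genes 0.01 to 0.03. The ER members with the smallest adjusted p were Hspa5 in HSC, at 723, 806, 592 and 551 CPM in ko and 372, 448, 561 and 459 in wt (log2 change 0.53 ± 0.15, edgeR adjusted p = 0.0956; DESeq2 0.0405), and Hsp90b1 in HPC, at 218, 249, 231 and 263 CPM in ko and 171, 161, 181 and 140 in wt (0.55 ± 0.14, edgeR adjusted p = 0.0882; DESeq2 0.0169). The Hspa5 groups overlapped and the Hsp90b1 groups did not. These 2 genes were picked out after their values were seen.

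In the wider pathway, Got1, the cytosolic aspartate aminotransferase, was called higher in ko pGM, at 107, 106, 118 and 104 CPM against 81.3, 77.3, 68.8 and 85.3 in wt (log2 change 0.48 ± 0.10, edgeR adjusted p = 0.0181). It was the 1 of 17 other ATF4 pathway genes tested there that was called, where 1.94% of all genes were called and 0.41% higher. The 20 synthetases had 0 calls in HSC, HPC, pGM and GMP, where 1.78%, 1.1%, 1.94% and 0.555% of all genes were called. Their median log2 change was 0.10, -0.00, -0.04 and -0.25 in the same order.

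Markers of other cells differed between the same genotypes. In HSC, 3 of 7 macrophage markers (C1qa, C1qb, C1qc, Cd163, Adgre1, Vcam1, Hmox1) and 3 of 4 tested stroma and endothelium markers were called lower in ko, with summed levels of 17.3 to 33.6 CPM in ko against 63.9 to 128 in wt, and 74.5 to 84.5 against 195 to 255. In HPC, 1 of 6 granulocyte-monocyte markers was called higher in ko and 1 of 3 tested stroma and endothelium markers and 1 of 4 tested HSC markers lower. Summed levels in HPC did not overlap between ko and wt for granulocyte-monocyte markers (3500 to 5140 CPM against 2460 to 2970), plasma cell markers (289 to 583 against 42.7 to 259, 0 of 6 called), macrophage markers (35.1 to 83.9 against 85.4 to 148, 0 of 7 called) and stroma and endothelium markers (61.4 to 67.8 against 78 to 130). In pGM, 3 of 5 tested mast cell and basophil markers were called lower in ko. Their part in the Asns difference was not tested.

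The PBS groups of the second experiment gave the genotype comparison a further set of libraries. 0 of 36 members were called between ko and wt, where 0.798% of 16538 genes were called in HSC and 0.257% of 15951 in HPC; DESeq2 called 0 as well, and 3 and 2 members had an unadjusted p under 0.05 (9.05% and 9.04% of all genes). Asns was at 124, 108, 115 and 170 CPM in HSC ko PBS and 65.5, 57.5, 83.3 and 75.1 in wt PBS, and at 89.9, 65.4 and 80.0 against 47.7, 29.0 and 24.7 in HPC. All ko libraries lay above all wt libraries in both populations. The log2 changes were 0.88 ± 0.34 in HSC (edgeR adjusted p = 0.377) and 1.2 ± 0.68 in HPC (adjusted p = 0.64). An exact two-sided permutation test on log2 CPM gave p = 0.0286 in HSC, the smallest that 4 against 4 allows, and 0.1 in HPC, the smallest that 3 against 3 allows; adjusted over 4 such comparisons these were 0.114 and 0.2.

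Trib3 also lay higher in every ko library in both PBS comparisons, where 2.67% of genes did so in HSC and 6.81% in HPC, at 59.7, 63.9, 46.1 and 36.3 CPM against 31.4, 35.8, 31.7 and 30.5 in HSC and at 22.1, 22.0 and 16.5 against 14.1, 16.2 and 13.7 in HPC. Its log2 change in HSC was 0.67 ± 0.32 (edgeR adjusted p = 0.553). In HPC 5 of 18 amino acid response members (Trib3, Asns, Pycr1, Slc7a11, Slc7a5) had every ko library above every wt library, and 0 of 18 ER members, where 6.81% of all genes tested did; in HSC these were 2 of 18 (Trib3, Asns) and 0 of 18, where 2.67% did. The median log2 change of the amino acid response members was 0.26 in HSC and 0.32 in HPC, and that of the ER members -0.09 and 0.08.

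Ppp1r15a, which opposes the integrated stress response by dephosphorylating eIF2alpha, was called lower in HSC ko PBS. It was at 38.4, 28.3, 33.0 and 28.5 CPM in ko and 48.3, 57.3, 73.0 and 55.7 in wt, without overlap (log2 change -0.87 ± 0.19, edgeR adjusted p = 0.0385). In the untreated HSC of the first experiment its ko against wt log2 change was 0.21 ± 0.17 (edgeR adjusted p = 0.724). HSC ko PBS 4 stood apart in the library index described below, at 5.68 against 7.95 to 8.18 in the others of its group. In HSC, macrophage markers were again lower in ko, at 20.7 to 37.2 CPM summed against 80.4 to 97.9 in wt.

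After IL-1, 0 of 36 members were called against PBS in any of the 4 population and genotype groups. The share of all genes called was 0.2% in wt HSC, 0.212% in ko HSC, 0.947% in wt HPC and 0.433% in ko HPC, and 4, 3, 4 and 1 of 36 members had an unadjusted p under 0.05, where 7.82%, 8.79%, 10.1% and 6.86% of all genes did. DESeq2 called Trib3 in ko HPC and 0 members in the other 3.

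Trib3 was the member with the smallest p in both HPC comparisons, and was picked out for that. In HPC it was at 1.99, 10.2 and 5.96 CPM after IL-1 and 14.1, 16.2 and 13.7 after PBS in wt, and at 3.12, 8.02 and 6.58 against 22.1, 22.0 and 16.5 in ko. All IL-1 libraries lay below all PBS libraries of their genotype. The log2 change was -1.28 ± 0.45 in wt (edgeR adjusted p = 0.296) and -1.77 ± 0.45 in ko (adjusted p = 0.168). In ko HPC, where same-numbered libraries deviated together, the fit with the replicate number as a block gave -1.89 ± 0.39 (edgeR adjusted p = 0.0434), DESeq2 gave an adjusted p of 0.00685, and leaving out the IL-1 libraries numbered 1 gave -1.46 (edgeR adjusted p = 0.0158). In HSC, Trib3 was at 24.0, 27.5 and 27.9 CPM after IL-1 and 30.5 to 35.8 after PBS in wt, and at 10.4, 32.5, 25.3 and 53.9 against 36.3 to 63.9 in ko; the log2 changes were -0.26 ± 0.35 and -0.75 ± 0.32 (edgeR adjusted p = 0.906 and 0.507).

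Atf6, which encodes the ER membrane sensor that is cleaved to drive chaperone transcription, was called higher after IL-1 in wt HPC. It was at 78.4, 66.2 and 62.9 CPM after IL-1 and 25.5, 27.1 and 39.3 after PBS (log2 change 1.18 ± 0.23, edgeR adjusted p = 0.0203). In ko HPC it was at 48.2, 45.7 and 55.4 against 24.7, 25.6 and 40.0, also without overlap (0.73 ± 0.22, adjusted p = 0.318). In HSC the groups overlapped, with log2 changes of -0.00 and 0.24.

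The ER members after IL-1 were spread by single libraries. 3 IL-1 libraries numbered 1 had the highest mean log2 CPM over the 18 ER members in the experiment, at 8.00 in ko HPC, 7.91 in wt HPC and 7.51 in ko HSC, where the other IL-1 libraries lay between 6.10 and 6.85. Hspa5 was at 1890, 577 and 567 CPM in ko HPC, 1740, 475 and 518 in wt HPC, and 1370, 546, 380 and 313 in ko HSC after IL-1, with the first value from library 1 in each. In the same libraries the mean log2 CPM of the 20 synthetases was 7.60, 7.54 and 7.26 (6.33 to 7.11 in the other IL-1 libraries), and that of the mitosis genes was 5.65 and 5.49 in HPC, against 6.24 to 7.06 in the other HPC IL-1 libraries.

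Without the IL-1 libraries numbered 1, the median log2 change of the ER members turned from 0.36 to -0.23 in wt HPC, from 0.46 to -0.09 in ko HPC and from 0.16 to -0.18 in ko HSC. In wt HSC it was -0.40 with and -0.46 without the library labelled HSC wt IL-1 1, and 17 of 18 ER members had a negative change in both. The median of the amino acid response members there was -0.17 with that library (12 of 18 negative) and -0.49 without it (16 of 18 negative). Without the IL-1 libraries numbered 1, their median went from 0.26 to -0.02 in wt HPC, 0.13 to -0.1 in ko HPC and -0.01 to -0.19 in ko HSC. In wt HSC, 7 ER members (Hspa5, Hyou1, Sdf2l1, Manf, Pdia3, Pdia4, Creld2) had every IL-1 library below every PBS library, where 5.06% of all genes tested did. So did 3 amino acid response members (Trib3, Phgdh, Slc7a5), and 0 of these members were called. Hspa5 there was at 417, 352 and 328 CPM after IL-1 and 710, 640, 625 and 567 after PBS (log2 change -0.76 ± 0.38, edgeR adjusted p = 0.668). Without the library labelled HSC wt IL-1 1 its change was -0.87 ± 0.45 (edgeR adjusted p = 0.623).

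**Figure D4:**
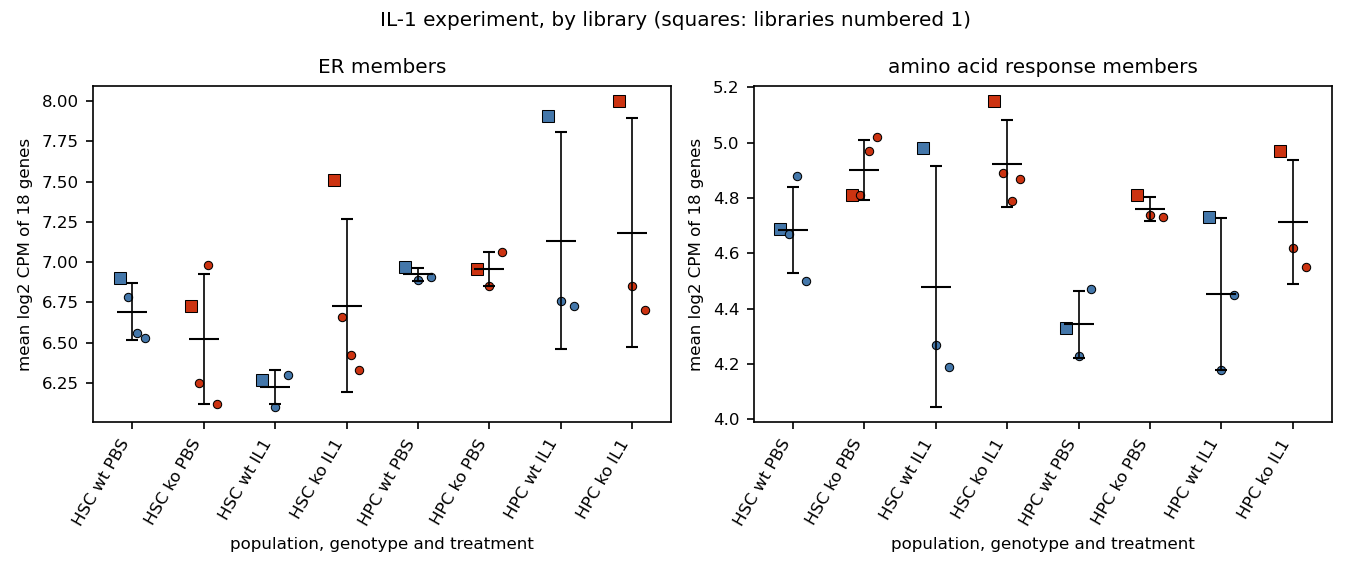
Mean log2 CPM over the 18 ER members (left) and the 18 amino acid response members (right) by library in the PBS and IL-1 groups; squares are libraries numbered 1, bars are mean and SD, blue is wt and red ko. The squares of ko HPC, wt HPC and ko HSC after IL-1 stand at 8.00, 7.91 and 7.51 in the left panel, above all other libraries.

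The ko against wt comparison after IL-1 called 0 members in HSC, where 0 of 16538 genes were called (1412 at an unadjusted p under 0.05, 90 by DESeq2), and 0 in HPC, where 0.201% of 15951 were. Asns was at 193, 84.7, 92.4 and 103 CPM in ko HSC IL-1 and 45.8 and 36.9 in the wt libraries numbered 2 and 3, with 137 in the library labelled HSC wt IL-1 1. With all 7 libraries the log2 change was 0.66 ± 0.37 (edgeR adjusted p = 0.628; exact permutation p = 0.229). Without the library labelled HSC wt IL-1 1 it was 1.49 (edgeR adjusted p = 0.032), and the number of genes called rose from 0 to 159. In HPC, Asns was at 219, 54.6 and 53.3 CPM in ko and 96.5, 20 and 23.3 in wt after IL-1, with library 1 highest in both (log2 change 1.22 ± 0.68, edgeR adjusted p = 1.0; exact permutation p = 0.3). Same-numbered libraries deviated together in this comparison. Within the numbers 1, 2 and 3, Asns was higher in ko by 1.18, 1.45 and 1.19 on the log2 scale, and the fit with the replicate number as a block gave 1.25 ± 0.35 (edgeR adjusted p = 0.274). Leaving out library 1 of 1 genotype alone moved the unpaired log2 change to 0.2 (without HPC ko IL-1 1) or 2.33 (without HPC wt IL-1 1), and leaving out both gave 1.32 (edgeR adjusted p = 0.0768). In wt cells the IL-1 change in HPC minus that in HSC called 0 members and 0.0228% of genes (2 members and 5.77% of genes at an unadjusted p under 0.05; 0 members by DESeq2). The IL-1 change in ko minus that in wt called 0 members in HSC and in HPC, where 0 genes were called in either (756 and 352 at an unadjusted p under 0.05; 1 and 12 by DESeq2).

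The ER members Pdia3 and Sdf2l1, and to a smaller degree Creld2, followed a library-to-library axis that cut across the groups of the first experiment. Within groups of the first experiment (48 libraries, deviations from group means), Pdia3 and Sdf2l1 had a Pearson r of 0.93 on the log2 scale, and in the second (27 libraries) 0.81. The protein-coding genes outside the 36 that followed Pdia3 most closely in the first experiment (r 0.95 to 0.98, and 0.63 to 0.95 in the second) were Idh2, Aldh2, Dut, Pfn1 and Hmgn1, which serve mitochondrial metabolism, nucleotide supply, actin and chromatin; their mean log2 CPM is called the library index. In the first experiment the r with this index was 0.98 for Pdia3, 0.94 for Sdf2l1 and 0.81 for Creld2, and at most 0.47 in size for the other 28 members with a mean above 10 CPM. In the second experiment these 3 genes did not stand apart in the same way: the r was 0.91 for Pdia3, 0.6 for Sdf2l1 and 0.49 for Creld2, beside 0.64 for Slc3a2, 0.62 for Sel1l, 0.59 for Aldh18a1 and 0.55 for Hyou1. The points share library, depth and preparation, and the index genes were picked for following Pdia3.

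Pdia3 spanned 428 to 2930 CPM among the het GMP libraries alone and 103 to 750 among the ko HPC libraries. Hspa5 in the same groups spanned 1990 to 3730 and 421 to 693 CPM.

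**Figure D5:**
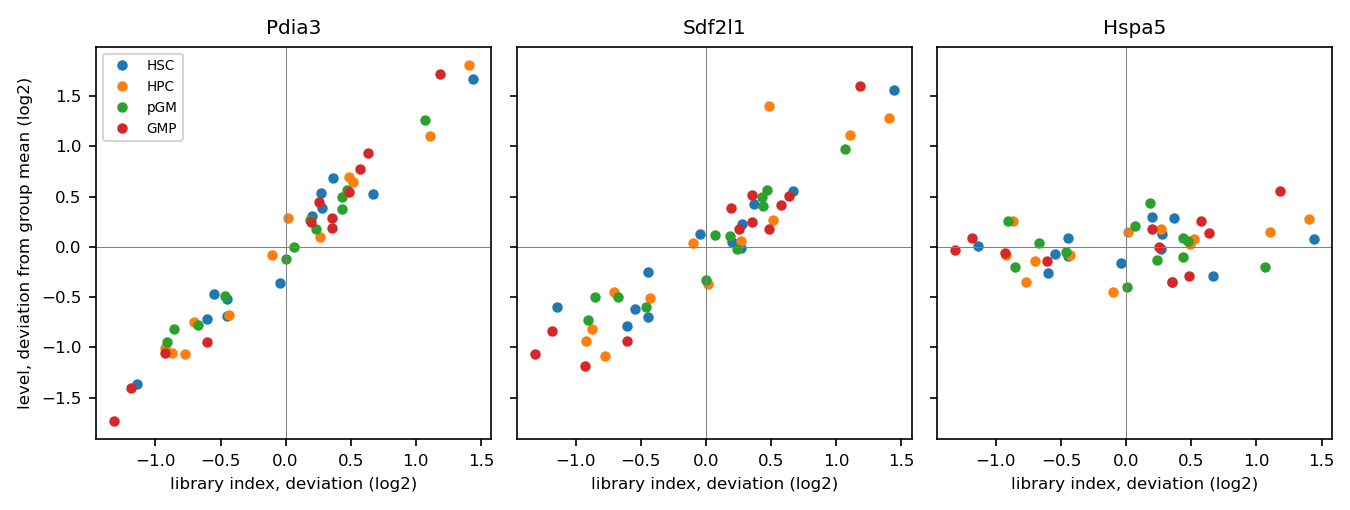
Deviation of the log2 level of Pdia3, Sdf2l1 and Hspa5 from the group mean against the deviation of the library index, for the 48 untreated libraries, coloured by population. Pdia3 and Sdf2l1 rise with the index (r of 0.98 and 0.94), and Hspa5 has an r of 0.23 with it.

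Beyond these 3 genes, the ER and amino acid response members varied between libraries of a group with little relation in the first experiment and more in the second. The within-group r of the mean level of the amino acid response members with that of the ER members was 0.25 over 48 libraries and 0.53 over 27; without the 3 index-following genes it was 0.05 and 0.57. Asns followed the synthetases, with a within-group r of 0.65 and 0.75, and its r with the other 15 ER members was 0.03 and 0.69. The second experiment includes the 3 IL-1 libraries with high ER levels.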

How the data were processed

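Per the submitters' processing notes, reads were handled with STAR 3.0.4, featureCounts 1.4.5 and Subread; the genome build was not given in the sources used here. The values used are the whole-number counts per gene that the authors deposited, 1 table per experiment, and nothing had been normalized in them. RNA came from sorted cells by a micro-column kit and a SMART-type amplification, per the labels. The 3 entries of the first table that are no mouse gene were left out of library sizes and tests.

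Levels are CPM after TMM scaling over all libraries of an experiment. Tests used edgeR 4.0.16 (quasi-likelihood, robust, filterByExpr with a minimum count of 10 and total of 15, in R 4.3.3) with Benjamini-Hochberg adjustment over all genes tested and a threshold of 0.05. Genotype and IL-1 comparisons were fitted within a population, and population steps over all libraries of the experiment. DESeq2 1.42.0, scaling by RLE, testing without a filter on low counts, other sample sets, a replicate block, a Y-linked covariate and each library left out were alternatives; the library index covariate and the omission of the IL-1 libraries numbered 1 were added after seeing the data. The fits were tested on simulated data.

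The members and gene lists were chosen with earlier results of these data known. Values per library are given for members called between genotypes and for up to 4 called members of each kind per population step with the largest changes; of other pathway genes at most 3 in each direction are named, by p-value. Promoter windows are from RefSeq on GRCm38.p6, and the short motif sites were added after the matches were seen. Same-numbered libraries deviated together in every pair (r above 0.1) only for IL-1 against PBS in ko HPC (0.11 to 0.19) and ko against wt in HPC after IL-1 (0.21 to 0.42); the pairing comes from that correlation and not from the labels.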

Additional observations from a re-analysis of the deposited data

Results flagged for a closer look

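In 9 of 105 sets of 4 values, each a gene or a mean score in 1 group of 4 libraries, 1 library lay far from the other 3 by Dixon's ratio. Chance gives this in about 1 in 20 separate sets, but these sets share libraries and genes. In wt HPC, library 4 had Asns at 30.7 CPM (others 48.6 to 51.8) and Nupr1 at 1.90 (others 0 to 0.169). In wt pGM, library 2 had Nupr1 at 2.53 CPM (others 0 to 0.114) and a mean log2 CPM of the amino acid response members of 4.45 (others 4.20 to 4.24). In wt GMP, library 2 had Dnajb9 at 25.7 CPM (others 20.9 to 21.1), and library 4 had a mean log2 CPM of the amino acid response members of 4.27 (others 4.03 to 4.06). In HSC, wt library 2 had Hsp90b1 at 169 CPM (others 136 to 139), het library 4 had a mean log2 CPM of the ER members of 6.74 (others 6.39 to 6.44), and ko library 4 had 6.61 (others 6.79 to 6.82).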

How the results depend on the processing

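The number of members called stayed within 1.5 times its value in 454 of 474 alternatives over 30 comparisons. For ko against wt it went from 1 to 3 in HSC, 1 to 2 in HPC and 1 to 2 in pGM with DESeq2, and from 1 to 0 in HPC with the Y-linked covariate; leaving out 1 library gave 1 to 2 in HSC (Pycr1 added without HSC ko 3) and 1 to 2 in pGM (Pycr1 added without pGM wt 1). For ko against het it went from 0 to 1 in pGM with DESeq2 and with no filter on low counts, and leaving out 1 library gave 0 to 1 in HSC (Sdf2l1 without HSC het 4) and 0 to 1 in pGM (Asns without pGM het 4). In ko HPC, IL-1 against PBS went from 0 to 1 (Trib3) with DESeq2, with the replicate block and without the IL-1 libraries numbered 1. Where replicate numbers are shared only as numbers, the replicate block gave 1 in place of 0 for IL-1 against PBS in wt HSC (Aldh18a1), for ko against wt in HSC after IL-1 (Aldh18a1), for IL-1 against PBS in wt HPC (Phgdh) and for the IL-1 change in wt HPC minus wt HSC (Aldh18a1); it moved no other count of members by over 1.5 times. In the wt HPC against HSC PBS comparison 3 members became 5 with DESeq2 and 5 with only the groups compared. For ko against wt in HSC after IL-1, leaving out 1 library gave 0 to 1 (Asns, without the library labelled HSC wt IL-1 1).

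The median log2 change of the amino acid response members minus that of the ER members was less stable. For ko against wt in HPC it went from 0.03 to -0.10 with the Y-linked covariate and spanned -0.05 to 0.16 with 1 library left out. Leaving out 1 library gave -0.13 to 0.04 for het against wt in HPC, -0.20 to 0.07 for ko against wt in GMP, -0.16 to 0.09 for wt HPC against HSC, 0.24 to 0.36 for ko against wt in HPC after PBS, -0.06 to 0.15 for the ko effect in HPC minus HSC and 0.02 to 0.32 for that in GMP minus HSC. It also turned sign with 1 library left out for ko against het in HSC (-0.07 to 0.13), HPC (-0.03 to 0.14) and GMP (-0.11 to 0.05), ko against wt in pGM (-0.10 to 0.07), het against wt in GMP (-0.17 to 0.08), IL-1 against PBS in wt HSC (-0.03 to 0.29) and wt HPC (-0.16 to 0.22), and ko against wt after IL-1 in HSC (-0.34 to 0.05) and HPC (-0.22 to 0.46). Without the IL-1 libraries numbered 1 it went from -0.24 to 0.21 for ko against wt in HSC after IL-1, from -0.40 to -0.02 for the IL-1 change in ko minus wt HSC, and from -0.32 to 0.08 for that in wt HPC minus wt HSC. The Asns log2 change for ko against het in GMP went from 0.15 to -0.01 with the Y-linked covariate. The cause was not tested for any of these. Asns for ko against wt in HSC and pGM stayed called in all 15 alternatives (edgeR adjusted p up to 0.0458 and 0.00565). Counts over all genes moved more: ko against wt went from 246 to 440 in HSC, 146 to 291 in HPC, 251 to 411 in pGM and 67 to 235 in GMP with DESeq2. Depth limits Chac1, Slc7a11 and, outside HSC, Nupr1, which lay near the filter on low counts.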
